A study of Arabidopsis thaliana with 24 samples.

Results

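The 10 genes described here encode enzymes and regulators of flavonoid and anthocyanin synthesis in Arabidopsis thaliana, and were taken by gene identifier from the 32833 genes of a table of read counts. They are the early enzymes CHS (AT5G13930), CHI (AT3G55120), F3H (AT3G51240) and F3'H (AT5G07990), the flavonol enzyme FLS1 (AT5G08640), the anthocyanin-branch enzymes DFR (AT5G42800), LDOX (AT4G22880) and UF3GT (AT5G54060), and the MYB transcription factor genes MYB12 (AT2G47460) and PAP1 (AT1G56650). Read counts came from polyadenylated RNA of whole Columbia-0 seedlings in 24 libraries, 3 replicates in each of 8 groups. The study's design is given as 3 biological replicates per group, but nothing in the labels says that they came from separate cultures. The p-values measure the spread between these libraries, and how far it is technical is not known. The groups were pifq light ABA, pifq light mock, pifq dark ABA, pifq dark mock, WT light ABA, WT light mock, WT dark ABA and WT dark mock. WT is the wild type and pifq is a mutant in PIF1, PIF3, PIF4 and PIF5, transcription factor genes that hold back light-type development in darkness. All seedlings grew on medium with sucrose at 22 °C. Dark-grown seedlings received 2 h of light, were moved after 62 h to plates with abscisic acid (ABA) or ethanol (mock) and were kept dark for 4 more days. Those grown in light stood under low white light for 16 h a day, were moved after 72 h and stayed 5 more days. Light and seedling age therefore cannot be told apart. No source used here states the dose of ABA.

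Flavonoids are made from the phenylpropanoid pathway. CHS joins an activated hydroxycinnamic acid to malonyl units to give a chalcone, CHI closes its ring, and F3H and F3'H add hydroxyl groups. The dihydroflavonols so formed go to flavonols through FLS1, or through DFR and LDOX to anthocyanidins, which glycosyltransferases turn into stable anthocyanin pigments. UF3GT is a glycosyltransferase of anthocyanins. MYB12 activates mainly the early genes and FLS1, whereas PAP1, with bHLH and WD40 partners, activates the anthocyanin branch. In seedlings the pathway is known to answer to light, partly through the bZIP factor HY5, and to sucrose, and its products accumulate mostly in the epidermis.

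Total counts lay between 13722850 and 17538529 per library, and 20828 genes passed the low-count filter and were tested. Levels are CPM, read counts relative to the library total after trimmed-mean scaling (TMM). Changes are log2 ratios of the first-named group over the second with their standard error (SE), and adjusted p-values come from the quasi-likelihood test of edgeR, adjusted by Benjamini-Hochberg over all genes tested. A gene was called, and is said to have risen or fallen, at an adjusted p under 0.05. PIF3 averaged 2.26 CPM in pifq dark mock and 61.6 CPM in WT dark mock, and its group mean was lower in pifq in all 4 settings, as was that of PIF5. PIF1 averaged 91.2 CPM in pifq dark mock and 37.6 CPM in WT dark mock. PIF4 averaged 63.4 CPM in pifq dark mock and 31.5 CPM in WT dark mock, and 111 CPM in pifq light mock and 240 CPM in WT light mock. Since insertions need not lower a read count, PIF1 and PIF4 check no label. The summed level of 7 green shoot markers was 6896 to 11365 CPM in dark-grown pifq and 2153 to 3776 CPM in dark-grown WT, against 17726 to 25568.5 CPM in the 12 light-grown libraries. A sum of 8 seed genes stood at 582 to 6098 CPM in the 12 ABA libraries and at 4.15 to 70.9 CPM in the 12 mock libraries, whereas 7 seed coat genes summed to 1.38 to 4.18 CPM in all 24, with TT1 at 0 in every library and BAN at 0.0359 CPM or less in each group mean. In whole seedlings, fewer cells of a type and less RNA per cell cannot be told apart.

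The windows upstream of 6 of the genes are shown because these genes gave the contrasts described further on: CHS and CHI moved in opposite directions with ABA in dark-grown WT, DFR and UF3GT were highest under ABA in light-grown pifq, MYB12 followed light and PAP1 followed ABA. Each window holds the 250 bases before the gene start annotated by RefSeq on TAIR10.1, written from far to near, and capitals mark matches to CACGTG (the G-box, the core at which HY5 and PIF proteins are known to bind) or ACGTGNC (a core of ABA-responsive elements). Both strands were searched, the motifs overlap each other, and another motif, ACCTANC, a core bound by MYB proteins, matched none of the 10 windows.
CHS, chr5:4488226-4488475, plus strand: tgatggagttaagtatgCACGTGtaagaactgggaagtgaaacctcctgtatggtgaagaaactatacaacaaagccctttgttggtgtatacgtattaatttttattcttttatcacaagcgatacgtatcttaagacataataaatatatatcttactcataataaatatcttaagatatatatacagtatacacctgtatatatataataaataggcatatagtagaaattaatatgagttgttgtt
CHI, chr3:20431598-20431847, minus strand: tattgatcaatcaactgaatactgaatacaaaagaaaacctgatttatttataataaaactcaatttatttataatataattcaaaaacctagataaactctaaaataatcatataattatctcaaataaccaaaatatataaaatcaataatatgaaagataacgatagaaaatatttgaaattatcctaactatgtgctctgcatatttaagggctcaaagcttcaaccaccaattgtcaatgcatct
DFR, chr5:17166033-17166282, minus strand: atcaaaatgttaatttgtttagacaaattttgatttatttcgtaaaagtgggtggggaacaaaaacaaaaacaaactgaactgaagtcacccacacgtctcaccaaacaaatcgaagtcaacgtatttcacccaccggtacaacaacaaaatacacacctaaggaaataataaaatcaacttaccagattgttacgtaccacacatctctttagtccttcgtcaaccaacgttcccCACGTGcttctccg
UF3GT, chr5:21938397-21938646, minus strand: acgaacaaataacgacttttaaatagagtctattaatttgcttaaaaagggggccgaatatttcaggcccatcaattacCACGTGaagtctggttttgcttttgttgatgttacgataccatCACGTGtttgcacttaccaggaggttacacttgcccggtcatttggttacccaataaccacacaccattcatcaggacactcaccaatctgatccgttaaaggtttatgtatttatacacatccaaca
MYB12, chr2:19476076-19476325, plus strand: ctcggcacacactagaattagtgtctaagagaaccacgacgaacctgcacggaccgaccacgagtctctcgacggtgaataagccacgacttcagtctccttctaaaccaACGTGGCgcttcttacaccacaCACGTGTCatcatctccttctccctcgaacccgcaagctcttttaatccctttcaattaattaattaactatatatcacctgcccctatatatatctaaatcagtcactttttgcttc
PAP1, chr1:21235293-21235542, minus strand: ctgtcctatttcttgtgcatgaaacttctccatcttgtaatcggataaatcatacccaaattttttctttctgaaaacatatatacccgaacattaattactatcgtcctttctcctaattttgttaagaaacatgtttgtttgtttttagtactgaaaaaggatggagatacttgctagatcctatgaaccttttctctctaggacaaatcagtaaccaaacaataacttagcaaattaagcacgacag
CACGTG lay in 6.49% of 27443 such windows of the genome's protein-coding genes, ACGTGNC in 8.57% and ACCTANC in 5.55%. CHS held a CACGTG whose near end was 228 bases before the start, DFR held one 9 bases before it, and UF3GT held matches 166 and 123 bases before it. MYB12 held CACGTG 113 bases before its start, overlapping a match to ACGTGNC, and another ACGTGNC 134 bases before it. Of the genes whose windows are not shown, F3H held CACGTG and ACGTGNC once each. These letters were found neither in the shown windows of CHI and PAP1 nor in those of F3'H, FLS1 and LDOX. A match is a description of the sequence and not a measured binding site.

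F3H, which encodes the hydroxylase that makes dihydroflavonols, had 1 count in all 24 libraries, in WT light mock replicate 2, and could not be tested. This row sets no level for the gene. On TAIR10.1 F3H lies at chr3:19025192-19026872 on the plus strand, and 1415 of its 1508 exon bases (93.8%) lie opposite exons of AT3G51238, a long non-coding RNA gene on the minus strand at chr3:19025110-19026779 that had 0 counts. Of the protein-coding genes with more than 90% of their exon bases opposite another gene's exons, 501 of 522 (96.0%) had fewer than 10 counts in all libraries together, against 3389 of 20770 (16.3%) of those with no such overlap. The other 9 genes had at most 0.117% of their exon bases opposite another gene. How reads on overlapping genes were counted is stated in no source used here, and its part in the empty row was not tested.

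**Figure D1:**
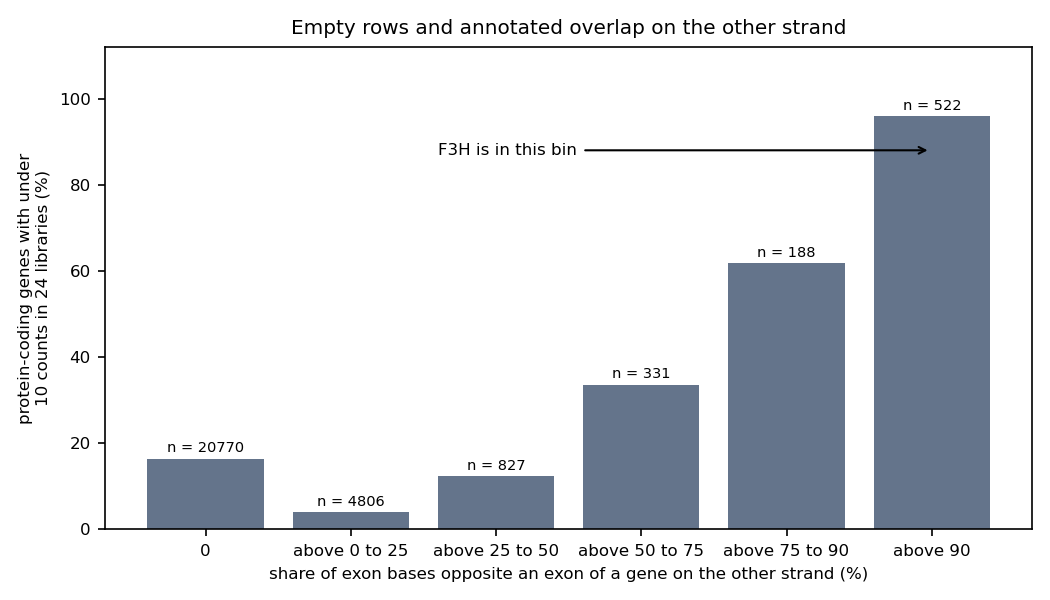
Share of protein-coding genes with fewer than 10 counts over 24 libraries (vertical axis, percent) by the share of their exon bases that lie opposite exons of a gene on the other strand (horizontal axis, percent); n is the number of genes in a bar. The bar for more than 90% stands at 96.0% and holds F3H, against 16.3% for genes with no such overlap.

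Per kilobase of exon, CHS was the most abundant of the 9 measured genes in light, at 40.7 CPM per kilobase in pifq light ABA and 33.8 in WT light ABA. CHI stood between 13.0 and 18.1 CPM per kilobase in 7 groups and at 4.45 in WT dark mock. F3'H and FLS1 lay between 1.67 and 6.52 CPM per kilobase. DFR, LDOX, UF3GT and MYB12 stayed at or below 2.1 CPM per kilobase in every group, so their values rest on few counts, and 3 counts are 0.257 CPM in the smallest library. CHS, CHI, F3'H and FLS1 had 10 counts or more in all 24 libraries. The other 5 passed the low-count filter through the groups in which they were high. UF3GT reached 10 counts in 3 ABA libraries and 0 mock libraries, DFR in 5 and 1, LDOX in 7 and 1 and PAP1 in 12 and 2, and MYB12 reached it in 10 light libraries and 0 dark libraries. UF3GT reached it in 3 light and 0 dark libraries, DFR in 4 and 2 and LDOX in 6 and 2. These 5 genes had to differ along those lines. Their tests of ABA, and of light for MYB12, UF3GT, DFR and LDOX, are therefore given as descriptions.

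**Figure D2:**
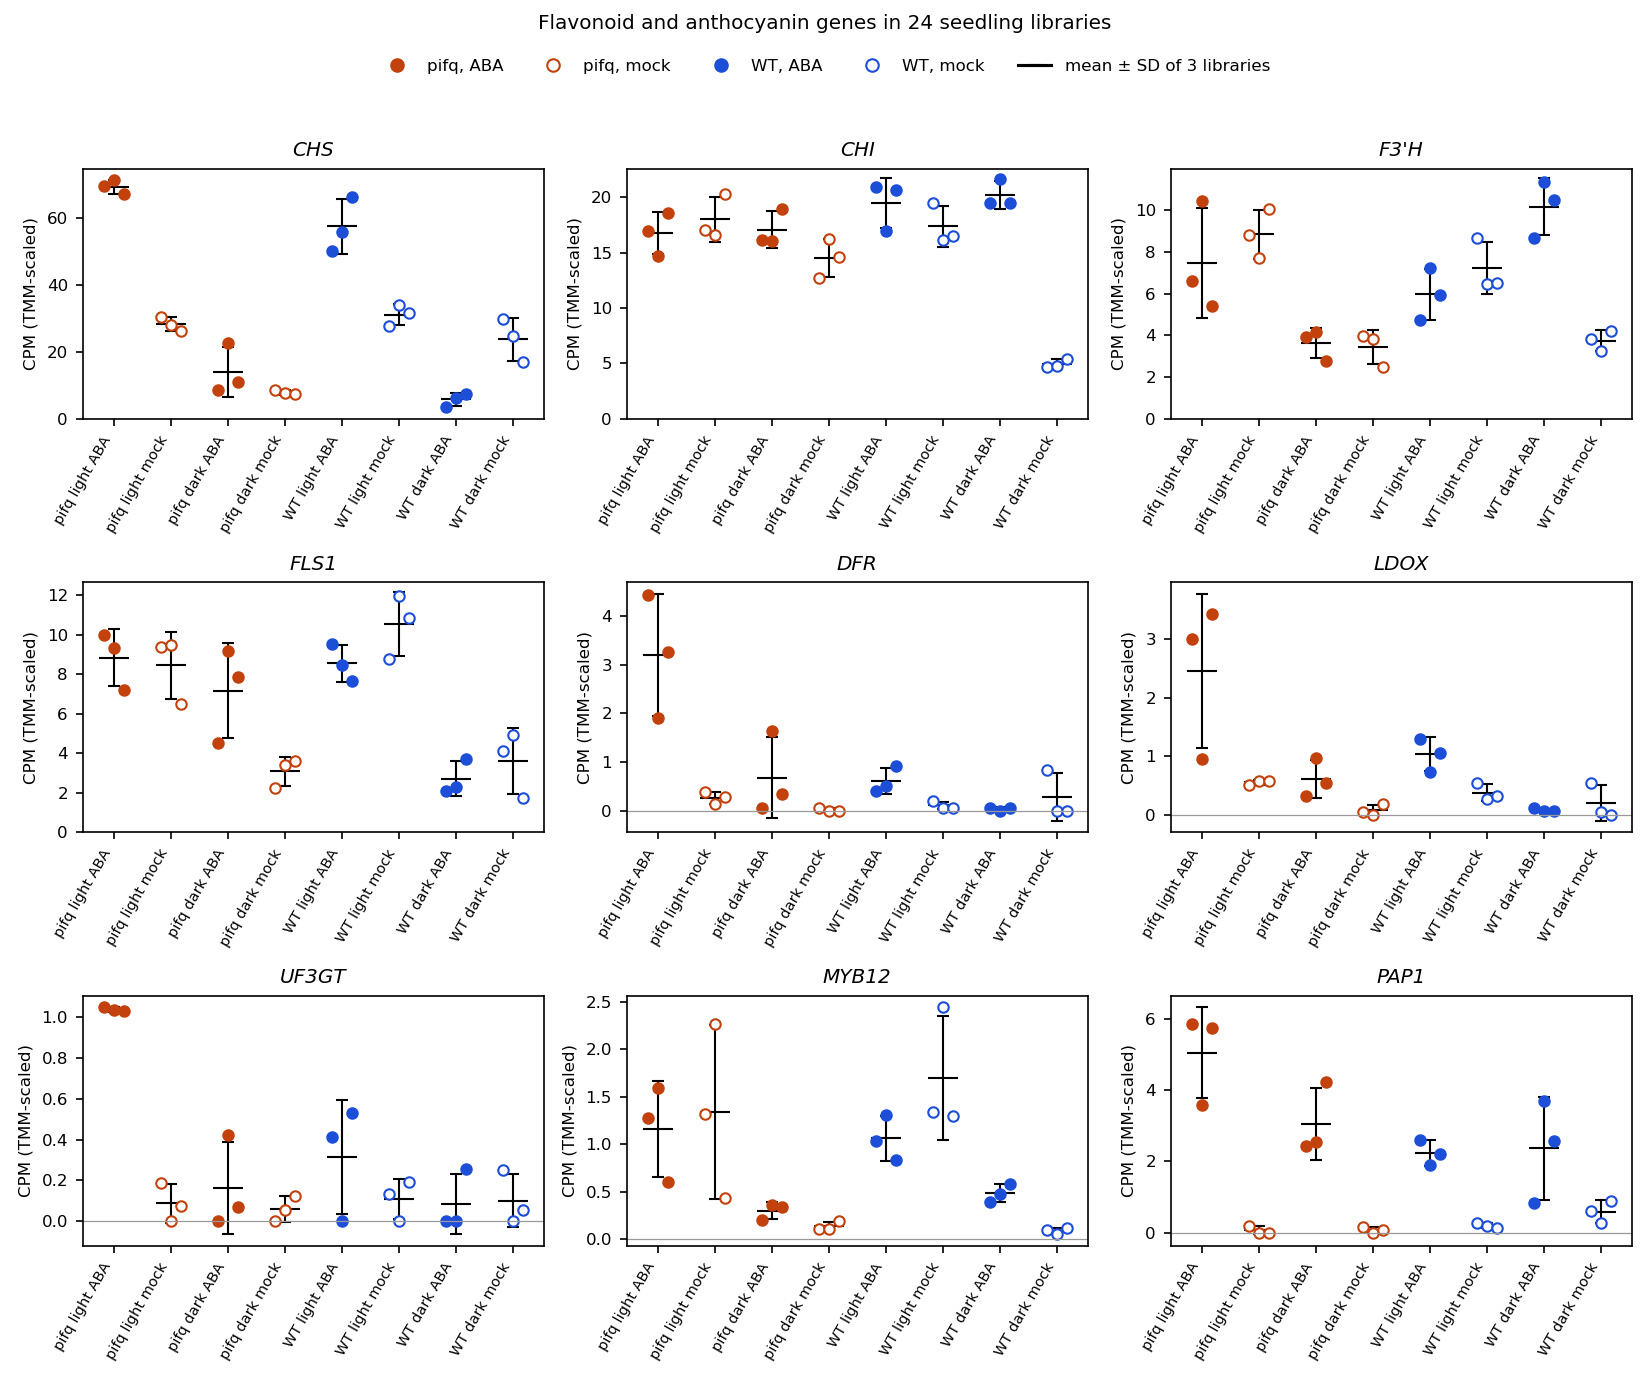
Level of each of the 9 measured genes (CPM, linear axis from 0) in every library of the 8 groups; points are libraries (orange pifq, blue WT, filled ABA, open mock), and bars give the mean and SD of 3 libraries. CHS under ABA in light stands above all other groups, CHI is low in WT dark mock alone, and PAP1 is high in the ABA groups.

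CHS, which encodes the first enzyme of flavonoid synthesis, was raised by ABA in light in both genotypes and lowered by ABA in dark-grown WT. Under light it stood at 69.5, 71.3 and 67.2 CPM in pifq light ABA, against 30.6, 28.2 and 26.2 CPM in pifq light mock. In WT it stood at 50.4, 55.9 and 66.5 CPM in light ABA, against 27.7, 34.2 and 31.6 CPM in light mock. All ABA libraries lay above all mock libraries in light. The log2 change was 1.29 ± 0.25 (adjusted p = 0.000369) in pifq light and 0.88 ± 0.25 (adjusted p = 0.00866) in WT light. In darkness WT held 3.65, 6.21 and 7.50 CPM with ABA, against 29.8, 24.6 and 17.0 CPM with mock. This was a fall of every ABA library below every mock library, with a log2 change of -2.05 ± 0.29 (adjusted p = 1.12e-05). The difference between the 2 responses of WT, light minus dark, was 2.94 ± 0.38 (adjusted p = 5.10e-05).

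In dark-grown pifq CHS stood at 8.71, 22.7 and 10.9 CPM with ABA, against 8.67, 7.60 and 7.45 CPM with mock. The ABA libraries lay above the mock libraries, replicate 1 by 0.04 CPM or more and replicate 2 by far the most. The log2 change of 0.84 ± 0.28 was called (adjusted p = 0.0198), but it was 0.31 (adjusted p = 0.297) without pifq dark ABA replicate 2. The call was also lost without pifq dark mock replicate 2 (0.81, adjusted p = 0.0582) and without pifq dark mock replicate 3 (0.80, adjusted p = 0.0564), with library totals (0.70, adjusted p = 0.0571) and in the fit of the compared groups alone (0.80, adjusted p = 0.0955). In darkness the response to ABA, pifq minus WT, differed by 2.89 ± 0.40 (adjusted p = 0.000172), and by 2.36 to 3.14 with any 1 of the 12 libraries left out. Between the genotypes CHS was lower in pifq under dark mock, with a log2 change of -1.59 ± 0.28 (adjusted p = 0.000128), and higher in pifq under dark ABA, with 1.30 ± 0.29 (adjusted p = 0.00164), which was 0.77 (adjusted p = 0.0178) without pifq dark ABA replicate 2. Under light the genotypes differed by -0.14 ± 0.26 in mock (adjusted p = 0.788) and 0.27 ± 0.25 with ABA (adjusted p = 0.709). With the replicate number as a block, which pairs the light ABA libraries, that difference was called (0.28, adjusted p = 0.0260). The genotype difference in mock changed with light by 1.45 ± 0.38 (adjusted p = 0.0103).

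CHS was higher in light than in darkness in 3 of the 4 settings, where seedling age differed too. The log2 change over darkness was 2.29 ± 0.27 in pifq ABA (adjusted p = 5.93e-07), 1.84 ± 0.28 in pifq mock (adjusted p = 1.46e-05) and 3.32 ± 0.29 in WT ABA (adjusted p = 7.01e-09), but 0.39 ± 0.26 in WT mock (adjusted p = 0.193). In order of group means CHS ran through pifq light ABA, WT light ABA, WT light mock, pifq light mock, WT dark mock, pifq dark ABA, pifq dark mock and WT dark ABA. The libraries of WT light mock, pifq light mock, WT dark mock and pifq dark ABA overlapped from each group to the next, and so did those of pifq dark mock and WT dark ABA.

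CHI, which encodes the chalcone isomerase that follows CHS, was low in WT dark mock and near 1 level in all other groups. It stood at 19.4, 21.6 and 19.5 CPM in WT dark ABA, against 4.68, 4.72 and 5.43 CPM in WT dark mock. In pifq darkness it stood at 16.2, 16.1 and 19.0 CPM with ABA, against 12.7, 16.2 and 14.6 CPM with mock. The groups thus stood apart in WT and overlapped in pifq. CHI rose with ABA in dark-grown WT by 2.03 ± 0.13 (adjusted p = 8.53e-11), while its log2 change was 0.24 ± 0.12 in dark-grown pifq (adjusted p = 0.112), 0.17 ± 0.12 in WT light (adjusted p = 0.292) and -0.10 ± 0.12 in pifq light (adjusted p = 0.511). The response in darkness, pifq minus WT, differed by -1.79 ± 0.18 (adjusted p = 2.61e-06), and the response in WT, light minus dark, by -1.86 ± 0.18 (adjusted p = 1.19e-06). CHI was higher in pifq than in WT under dark mock by 1.55 ± 0.13 (adjusted p = 1.12e-08), and this difference changed with light by -1.50 ± 0.18 (adjusted p = 4.54e-06).

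Under light CHI stood at 17.0, 14.7 and 18.5 CPM in pifq ABA, against 17.0, 16.6 and 20.3 CPM in pifq mock. In WT it stood at 20.9, 16.9 and 20.6 CPM in light ABA, against 19.5, 16.1 and 16.5 CPM in light mock. All 4 light groups overlapped. CHI was higher in light than in darkness in WT mock by 1.81 ± 0.13 (adjusted p = 1.01e-10). In pifq mock light gave 0.31 ± 0.12 (adjusted p = 0.0328), a call that was lost without pifq dark mock replicate 1 (0.22, adjusted p = 0.161), pifq dark mock replicate 3 (0.32, adjusted p = 0.0604) or pifq light mock replicate 3 (0.22, adjusted p = 0.173), with scaling by library totals (0.11, adjusted p = 0.423), in DESeq2 (adjusted p = 0.0546) and in the fit of the compared groups alone (adjusted p = 0.0814). In the ABA groups the change with light was -0.03 ± 0.12 in pifq (adjusted p = 0.857) and -0.05 ± 0.12 in WT (adjusted p = 0.727).

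**Figure D3:**
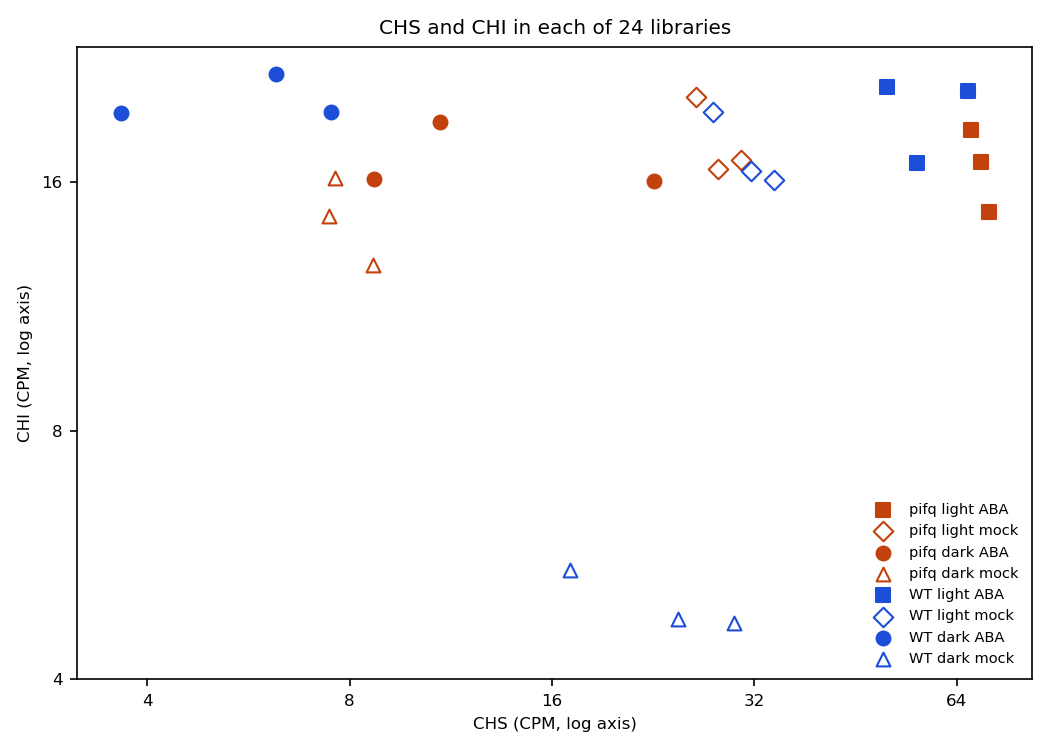
CHS (horizontal axis) against CHI (vertical axis) in each of the 24 libraries, both in CPM on log axes; colour gives the genotype, shape the light and treatment, and filled points are ABA. The 3 libraries of WT dark mock stand alone at 17.0 to 29.8 CPM of CHS and 4.68 to 5.43 CPM of CHI, while in the other 21 CHI lies between 12.7 and 21.6 CPM at any level of CHS.

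F3'H, the hydroxylase that sets the quercetin type of flavonoids, also rose with ABA in dark-grown WT alone among the 4 settings. It stood at 8.69, 11.4 and 10.5 CPM in WT dark ABA, against 3.83, 3.24 and 4.20 CPM in WT dark mock. In pifq darkness it stood at 3.93, 4.17 and 2.80 CPM with ABA, against 3.98, 3.83 and 2.48 CPM with mock. The first pair of groups stood apart and the second overlapped. The log2 change was 1.44 ± 0.23 in WT dark (adjusted p = 2.72e-05), 0.08 ± 0.25 in pifq dark (adjusted p = 0.819), -0.28 ± 0.23 in WT light (adjusted p = 0.355) and -0.24 ± 0.22 in pifq light (adjusted p = 0.398). The response in darkness differed by -1.36 ± 0.33 between pifq and WT (adjusted p = 0.0109), and the response in WT by -1.72 ± 0.32 between light and darkness (adjusted p = 0.00117). With ABA in darkness F3'H was lower in pifq than in WT by -1.48 ± 0.23 (adjusted p = 3.40e-05), and this difference changed with light by 1.81 ± 0.33 (adjusted p = 0.000548).

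Under light F3'H stood at 6.60, 10.4 and 5.41 CPM in pifq ABA, against 8.80, 7.70 and 10.0 CPM in pifq mock. WT held 4.74, 7.22 and 5.94 CPM in light ABA, against 8.66, 6.48 and 6.54 CPM in light mock. These groups overlapped within each genotype. F3'H was higher in light than in darkness by 1.04 ± 0.24 in pifq ABA (adjusted p = 0.000863). The difference was 1.36 ± 0.23 in pifq mock (adjusted p = 4.02e-05) and 0.94 ± 0.23 in WT mock (adjusted p = 0.00121). In WT ABA F3'H was lower in light than in darkness, with a log2 change of -0.77 ± 0.22 (adjusted p = 0.00479).

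FLS1, which makes flavonols, followed light and was raised by ABA in dark-grown pifq. It stood at 4.52, 9.19 and 7.84 CPM in pifq dark ABA, against 2.26, 3.40 and 3.60 CPM in pifq dark mock. In WT darkness it stood at 2.1, 2.27 and 3.72 CPM with ABA, against 4.13, 4.93 and 1.74 CPM with mock. The pifq groups stood apart and the WT groups overlapped. The log2 change with ABA was 1.22 ± 0.31 in pifq dark (adjusted p = 0.00263) and -0.43 ± 0.33 in WT dark (adjusted p = 0.311). The difference between these responses, 1.66 ± 0.45, was called (adjusted p = 0.0200), but the call was lost without pifq dark ABA replicate 2 (1.44, adjusted p = 0.0533), pifq dark mock replicate 1 (1.47, adjusted p = 0.0551), WT dark mock replicate 1 (1.55, adjusted p = 0.0515) or WT dark mock replicate 2 (1.37, adjusted p = 0.0696), and in the fit of the compared groups alone (1.62, adjusted p = 0.0783). With ABA in darkness FLS1 was higher in pifq than in WT by 1.42 ± 0.32 (adjusted p = 0.00119).

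The light groups of FLS1 spanned 7.21 to 9.98 CPM in pifq ABA, 6.48 to 9.51 CPM in pifq mock, 7.69 to 9.55 CPM in WT ABA and 8.80 to 11.96 CPM in WT mock. Neighbouring groups overlapped, and the change with ABA under light was 0.06 ± 0.29 in pifq (adjusted p = 0.877) and -0.30 ± 0.28 in WT (adjusted p = 0.429). FLS1 was higher in light than in darkness by 1.46 ± 0.31 in pifq mock (adjusted p = 0.000390). The difference was 1.68 ± 0.32 in WT ABA (adjusted p = 9.83e-05) and 1.54 ± 0.30 in WT mock (adjusted p = 0.000122). In pifq ABA it was 0.30 ± 0.29 (adjusted p = 0.395). The genotype difference under ABA changed with light by -1.38 ± 0.43 (adjusted p = 0.0306). That call was lost without any 1 of 6 of the 12 libraries, namely replicates 2 and 3 of pifq dark ABA, replicate 3 of pifq light ABA, replicates 1 and 2 of WT dark ABA and replicate 1 of WT light ABA, with values of -1.16 to -1.31 and adjusted p-values of 0.0607 to 0.0922.

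**Figure D4:**
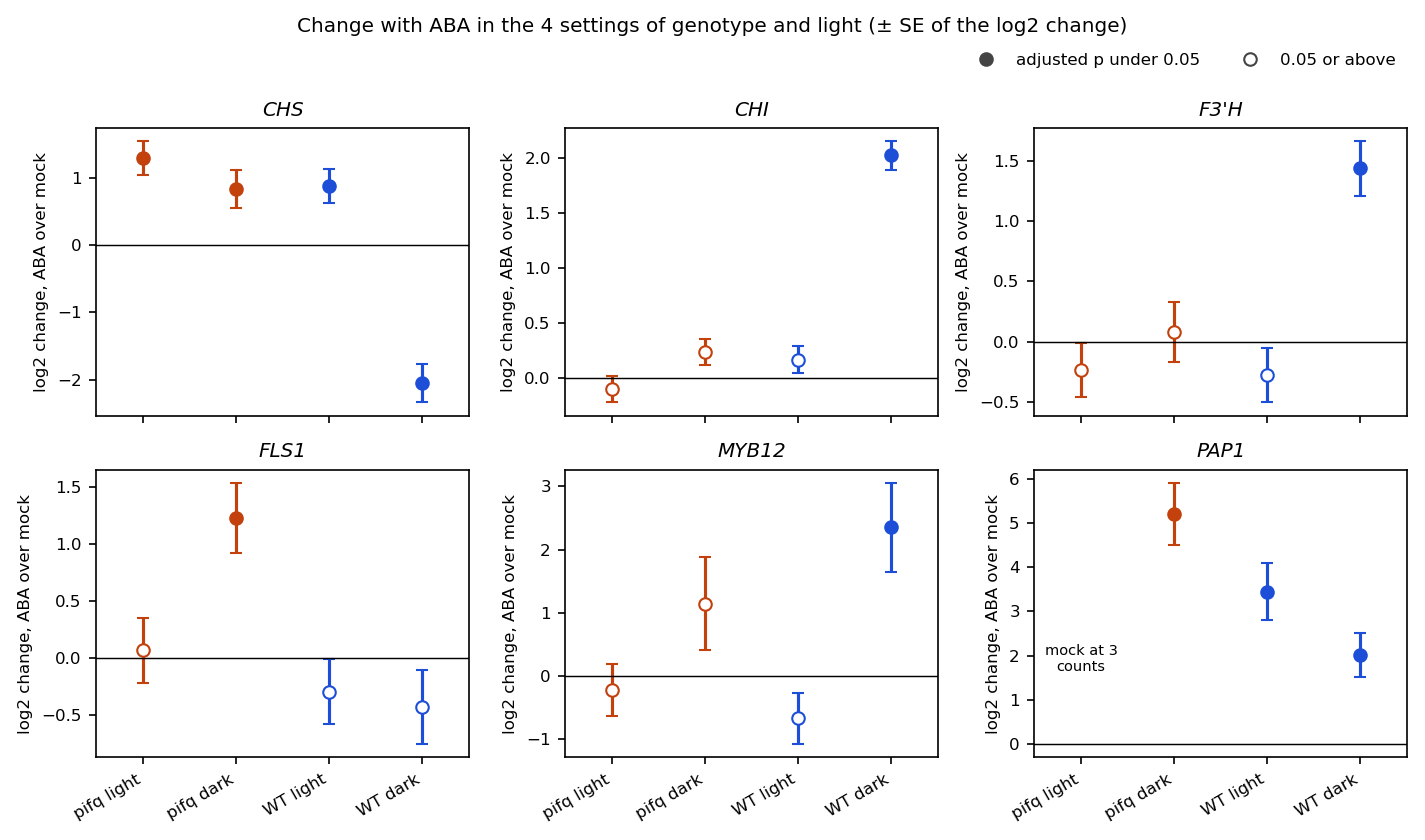
Change with ABA (log2 of ABA over mock, ± SE of the fitted change) of 6 genes in the 4 settings of genotype and light; filled points had an adjusted p under 0.05. CHS lies at -2.05 in WT dark and between 0.84 and 1.29 elsewhere, CHI, F3'H and MYB12 have their called change in WT dark, and PAP1 was called in all 4 settings, its pifq light value being left out because pifq light mock held 3 counts.

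The anthocyanin-branch enzymes were low in all libraries, and their group means were highest under ABA in light-grown pifq. DFR, which opens the branch, stood at 4.43, 1.91 and 3.26 CPM in pifq light ABA, against 0.377, 0.129 and 0.291 CPM in pifq light mock. LDOX, which makes anthocyanidins, stood at 3.0, 0.955 and 3.43 CPM in pifq light ABA, against 0.503, 0.582 and 0.582 CPM in pifq light mock. UF3GT, a glycosyltransferase of anthocyanins, stood at 1.05, 1.04 and 1.03 CPM in pifq light ABA, against 0.189, 0 and 0.0728 CPM in pifq light mock. In all 3 genes the ABA libraries lay above the mock libraries. The log2 changes were 3.55 ± 0.81 for DFR (adjusted p = 0.00124), 2.13 ± 0.56 for LDOX (adjusted p = 0.00341) and 3.44 ± 0.98 for UF3GT (adjusted p = 0.00634).

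In WT light DFR stood at 0.412, 0.510 and 0.913 CPM with ABA, against 0.201, 0.0661 and 0.0647 CPM with mock. LDOX stood at 1.31, 0.729 and 1.07 CPM in WT light ABA, against 0.537, 0.264 and 0.324 CPM in WT light mock. UF3GT had 13 counts in WT light ABA and 5 in WT light mock. Neither DFR (2.38 ± 1.19, adjusted p = 0.122) nor LDOX (1.45 ± 0.65, adjusted p = 0.0835) nor UF3GT (1.45 ± 1.15, adjusted p = 0.334) was called, although the ABA libraries of DFR and LDOX lay above the mock libraries. The difference of the responses between the genotypes in light was not called for DFR (1.17 ± 1.79, adjusted p = 0.881), LDOX (0.68 ± 0.90, adjusted p = 0.856) or UF3GT (1.99 ± 1.73, adjusted p = 0.752). Under light ABA pifq against WT was called neither for DFR (2.39 ± 0.72, adjusted p = 0.119) nor for LDOX (1.24 ± 0.51, adjusted p = 0.287) nor for UF3GT (1.70 ± 0.79, adjusted p = 0.357). The LDOX libraries of pifq light ABA and WT light ABA overlapped.

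In dark-grown pifq the branch genes rested largely on 1 library. DFR had 1, 27 and 5 counts in pifq dark ABA, against 1, 0 and 0 counts in pifq dark mock. LDOX had 5, 16 and 8 counts with ABA, against 1, 0 and 3 counts with mock, and UF3GT had 0, 7 and 1 counts with ABA, against 0, 1 and 2 with mock. Replicate 2 of pifq dark ABA was the highest of its group in all 3 genes and also in CHS and FLS1, and its summed seed and green shoot markers were 5366 and 8157 CPM, beside 3197 to 4985 CPM and 11272 to 11365 CPM in the other two libraries of the group. DFR was called higher with ABA (adjusted p = 0.0123), a ratio of 37.8 with an exact 95% counting interval of 6.33 to 1538. LDOX was called with 2.91 ± 0.91 (adjusted p = 0.0115), and UF3GT was not (ratio 3.05, interval 0.733 to 17.9, adjusted p = 0.395). Without pifq dark ABA replicate 2 both calls were lost, for DFR with an adjusted p of 0.186 and for LDOX with 2.41 (adjusted p = 0.0691), and that of LDOX was lost as well without pifq dark mock replicate 2 (2.34, adjusted p = 0.0532).

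In WT darkness DFR had 1, 0 and 1 counts with ABA, against 17, 0 and 0 counts with mock, so that 1 mock library held all 17. LDOX had 2, 1 and 1 counts with ABA, against 11, 1 and 0 with mock, of which the same library held 11. UF3GT had 4 counts with ABA and 6 with mock. None of the 3 was called, with adjusted p-values of 0.179, 0.360 and 0.864. With ABA in darkness pifq stood above WT in DFR (ratio 17.9, interval 4.58 to 153.9, adjusted p = 0.0259) and LDOX (2.85 ± 0.91, adjusted p = 0.0168). The call of DFR was lost without pifq dark ABA replicate 2 (adjusted p = 0.335) and without WT dark ABA replicate 1, 2 or 3 (adjusted p = 0.0573, 0.0905 and 0.0543). That of LDOX was lost without pifq dark ABA replicate 2 (2.34, adjusted p = 0.0953) or WT dark ABA replicate 2 (2.70, adjusted p = 0.0583).

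The response of DFR to ABA in darkness differed between pifq and WT with an adjusted p of 0.0309, but no size is given because pifq dark mock and WT dark ABA held 1 and 2 counts. Without WT dark mock replicate 1, which held its group's counts, the adjusted p was 0.939. It lay between 0.0501 and 0.117 without any 1 of 7 other libraries, namely replicate 2 of pifq dark ABA and every library of pifq dark mock and of WT dark ABA. For LDOX the difference was 4.22 ± 1.43 (adjusted p = 0.0601), and DESeq2 called it (adjusted p = 0.0180). In light against darkness in pifq ABA the log2 change was 2.18 ± 0.69 for DFR (adjusted p = 0.0106), 1.97 ± 0.54 for LDOX (adjusted p = 0.00397) and 2.55 ± 0.86 for UF3GT (adjusted p = 0.0152).

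The changes of DFR and UF3GT were larger without pifq dark ABA replicate 2, at 3.94 for DFR and 4.66 for UF3GT. The DFR call was lost without pifq light ABA replicate 1 (1.87, adjusted p = 0.0512), and that of UF3GT without pifq dark ABA replicate 1 (2.00, adjusted p = 0.0601) or 3 (2.21, adjusted p = 0.0545) and in DESeq2 (adjusted p = 0.0733). In WT ABA LDOX was higher in light by 3.58 ± 0.85 (adjusted p = 0.000963) and DFR by a ratio of 15.2 (interval 3.79 to 132.5, adjusted p = 0.0271). The DFR call was lost without any 1 library of WT dark ABA or without WT light ABA replicate 3 (adjusted p = 0.0513 to 0.0865). In pifq mock LDOX was higher in light by 2.75 ± 0.93 (adjusted p = 0.0156), a call lost without pifq dark mock replicate 1 (2.57, adjusted p = 0.0511) or 2 (2.19, adjusted p = 0.0644).

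MYB12, which activates the early genes and FLS1, stood higher in light in all 4 settings, the groups through which it passed the filter, and rose with ABA in dark-grown WT. It stood at 0.388, 0.478 and 0.577 CPM in WT dark ABA, against 0.0996, 0.0514 and 0.112 CPM in WT dark mock. The log2 change was 2.35 ± 0.70 (adjusted p = 0.0106) from 24 and 5 counts, and the groups stood apart. In pifq darkness it stood at 0.196, 0.363 and 0.341 CPM with ABA, against 0.108, 0.108 and 0.186 CPM with mock, a change of 1.14 ± 0.73 (adjusted p = 0.204). Under light the change with ABA was -0.22 ± 0.42 in pifq (adjusted p = 0.695) and -0.67 ± 0.41 in WT (adjusted p = 0.202). The response of WT differed between light and darkness by -3.02 ± 0.81 (adjusted p = 0.0175), a call lost without WT dark mock replicate 2 (-2.77, adjusted p = 0.0537). Between the genotypes in darkness the difference in response was -1.21 ± 1.08 (adjusted p = 0.526).

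The light libraries of MYB12 spanned 0.601 to 1.59 CPM in pifq ABA, 0.437 to 2.26 CPM in pifq mock, 0.837 to 1.31 CPM in WT ABA and 1.29 to 2.45 CPM in WT mock. Replicate 2 was the highest library in each of these 4 groups. The log2 change with light was 1.93 ± 0.53 in pifq ABA (adjusted p = 0.00368), 3.29 ± 0.57 in pifq mock (adjusted p = 4.47e-05) and 4.16 ± 0.58 in WT mock (adjusted p = 2.27e-06). In WT ABA it was 1.14 ± 0.48 (adjusted p = 0.0433), and this call was lost without replicate 1, 2 or 3 of WT dark ABA or replicate 1 or 2 of WT light ABA (adjusted p = 0.0537 to 0.136), with library totals (0.97, adjusted p = 0.0879), with every gene of at least 1 count (adjusted p = 0.0577) and in DESeq2 (adjusted p = 0.0695).

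PAP1, the activator of the anthocyanin branch, rose with ABA in all 4 settings, and passed the low-count filter through the ABA groups. Under light it stood at 5.85, 3.58 and 5.75 CPM in pifq ABA, against 0.189, 0 and 0 CPM in pifq mock. WT held 2.61, 1.90 and 2.21 CPM in light ABA, against 0.269, 0.198 and 0.129 CPM in light mock. In both genotypes the ABA libraries stood far above the mock libraries. In pifq light the ratio was 76.1 (interval 25.6 to 372, adjusted p = 5.22e-07), and in WT light the log2 change was 3.45 ± 0.64 (adjusted p = 0.000181). In darkness pifq held 2.42, 2.54 and 4.23 CPM with ABA, against 0.162, 0 and 0.0621 CPM with mock, a change of 5.20 ± 0.70 (adjusted p = 3.16e-06). WT darkness gave 0.831, 3.71 and 2.56 CPM with ABA, against 0.598, 0.257 and 0.896 CPM with mock. Here the groups overlapped, since ABA replicate 1 lay below mock replicate 3, and the change was 2.01 ± 0.50 (adjusted p = 0.00277).

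Under dark mock PAP1 was lower in pifq than in WT by -2.82 ± 0.88 (adjusted p = 0.0129), from 4 and 33 counts. This call was lost without pifq dark mock replicate 2 (-2.25, adjusted p = 0.0622) or WT dark mock replicate 3 (-2.39, adjusted p = 0.0608). The response to ABA in darkness differed between pifq and WT by 3.19 ± 0.98 (adjusted p = 0.0379). That call was lost in the fit of the compared groups alone (adjusted p = 0.0945) and without any 1 of 6 of the 12 libraries, namely replicate 3 of pifq dark ABA, replicates 2 and 3 of pifq dark mock, replicate 3 of WT dark ABA and replicates 1 and 3 of WT dark mock (2.63 to 3.26, adjusted p = 0.0537 to 0.127). The 4 ABA groups overlapped from each to the next, and light against darkness was called in none of the 4 settings, with adjusted p-values of 0.132 in pifq ABA, 0.932 in pifq mock, 0.901 in WT ABA and 0.0857 in WT mock. DESeq2 called the last (-1.61, adjusted p = 0.0332), and the fit of the compared groups alone called pifq ABA (0.78, adjusted p = 0.0455).

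**Figure D5:**
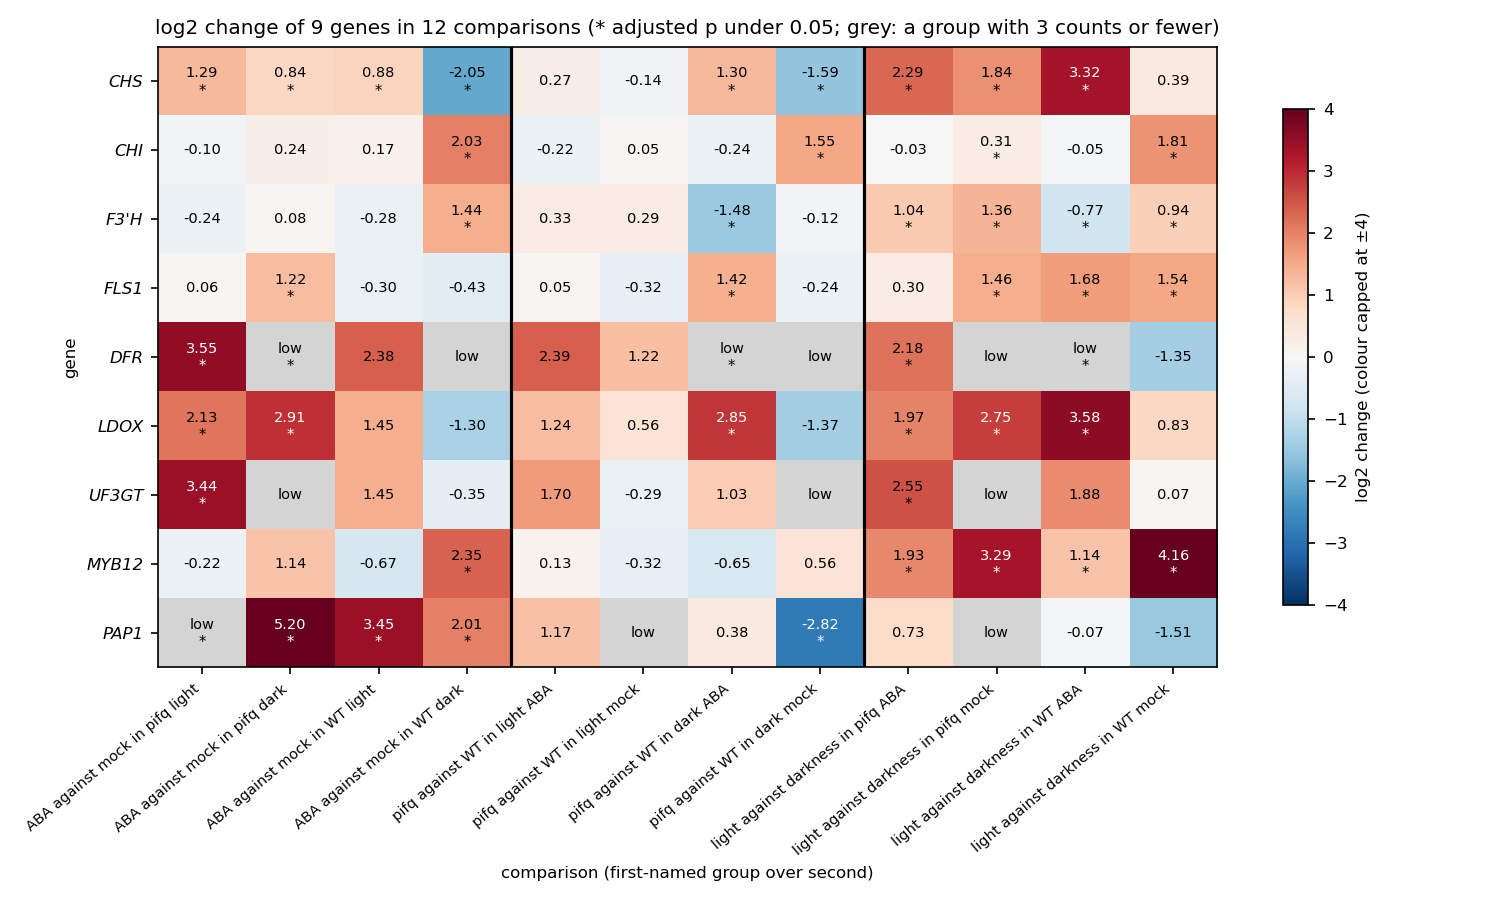
Log2 change of 9 genes (rows) in 12 comparisons (columns), the first-named group over the second; colour gives the size, capped at 4 in either direction, asterisks mark an adjusted p under 0.05 and grey cells have a group with 3 counts or fewer, for which no size is given. The ABA column of WT dark holds the lone called fall with ABA, that of CHS, and the columns of pifq against WT under light hold no asterisk.

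Set against all 20828 genes tested, the counts of called members were read comparison by comparison, F3H being untested in each. With ABA, 5 of the 10 genes rose and 0 fell in pifq light, where 23.7% of all genes rose and 23.0% fell. In pifq dark 5 rose and 0 fell (26.0% and 22.7% of all genes), in WT light 2 rose and 0 fell (21.0% and 19.0%), and in WT dark 4 rose and CHS fell (22.8% and 17.5%). The 5 genes of pifq light were CHS, DFR, LDOX, UF3GT and PAP1, those of pifq dark had FLS1 in place of UF3GT, and WT light had CHS and PAP1. Of the 4 genes with 10 counts or more in every library, 1 rose in pifq light, 2 in pifq dark and 1 in WT light, and 2 rose and 1 fell in WT dark. In pifq dark the count was 2 without pifq dark ABA replicate 2, 3 without pifq dark mock replicate 2, and 2 in the fit of the compared groups alone. Comparisons that share mock or ABA libraries are not independent.

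Between the genotypes in darkness, 4 of the 10 genes were higher in pifq (CHS, FLS1, DFR and LDOX) and F3'H was lower with ABA, where 22.2% of all genes were higher and 17.5% lower. These 5 calls were 3 without pifq dark ABA replicate 2 or WT dark ABA replicate 2. With mock CHI was higher in pifq and CHS and PAP1 were lower, where 23.5% of all genes were higher and 20.9% lower. Of the 4 genes with 10 counts or more in every library, 2 were higher and 1 lower in pifq under dark ABA. Under dark mock 1 of these 4 was higher and 1 lower. Under light none of the 10 genes was called in pifq against WT. In light mock 5.64% of all genes were higher and 4.96% lower, 0 members had an unadjusted p under 0.05 and DESeq2 called 0. In light ABA 0.586% were higher and 0.696% lower, 4 members (DFR, LDOX, UF3GT and PAP1) had unadjusted p-values under 0.05 and DESeq2 called 0. In that comparison libraries of the same replicate number deviated together, with correlations of 0.393, 0.513 and 0.338 over genes. With the replicate number as a block in the fit of these 6 libraries, 5 members were higher in pifq, namely CHS (0.28, adjusted p = 0.0260), DFR (2.39, adjusted p = 6.87e-05), LDOX (1.22, adjusted p = 0.00608), UF3GT (1.72, adjusted p = 0.0378) and PAP1 (1.17, adjusted p = 0.000315). The share of all genes called in that fit is not given here, and the 0.586% belongs to the fit without a block. This count therefore has no background beside it.

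The pifq dark libraries, in which these genotype differences were called, held 6896 to 11365 CPM of summed green shoot markers, against 2153 to 3776 CPM in WT dark, and 7 of 7 of these markers were higher in pifq with ABA and with mock. The 12 ABA libraries held the high seed sums given above, with 7 or 8 of 8 seed genes higher in each setting. In dark-grown WT, where CHI, F3'H and MYB12 rose, 6 shoot epidermis markers summed to 1590 to 1960 CPM with ABA, against 1054 to 1177 CPM with mock, and 8 root markers to 182 to 267 CPM with ABA, against 580 to 854 CPM with mock. In pifq dark, where these genes were not called, the root sums were 129 to 207 CPM with ABA and 354 to 552 CPM with mock. The epidermis sums there were 1596 to 1963.5 CPM with ABA and 1444 to 1722 CPM with mock. These sums do not stand for every marker. With library totals 0 of the 8 root markers rose and 7 fell with ABA in WT dark, and 3 rose and 5 fell in pifq dark. Of the 6 epidermis markers 4 rose and 0 fell in WT dark, and 1 rose and 2 fell in pifq dark. With that scaling 2720 of all 20828 genes rose and 5077 fell in WT dark, and 3585 and 6394 in pifq dark. Under light the mean root sum was 116 CPM with ABA and 157 CPM with mock in pifq, and 141 and 209 CPM in WT. The part of tissue makeup in the members' changes was not tested.

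In light against darkness, 6 of the 10 genes rose and 0 fell in pifq ABA (25.9% of all genes rose and 30.2% fell) and in pifq mock (29.0% and 28.3%). In WT ABA 5 rose and F3'H fell (31.5% and 31.1%), and in WT mock 4 rose and 0 fell (32.7% and 32.2%). Of the 4 genes with 10 counts or more in every library, 2 rose and 0 fell in pifq ABA, 4 rose in pifq mock, 2 rose and 1 fell in WT ABA, and 3 rose in WT mock. Without WT dark ABA replicate 1 or 2 the rises in WT ABA were 3 of the 10. MYB12 is counted in every setting, and the 4 of WT mock were CHI, F3'H, FLS1 and MYB12. With scaling by library totals in place of the trimmed mean the median of all genes shifted by -0.128 to -0.222 in the ABA and light comparisons, and the share of rises among all calls was 31.1% to 35.9% in place of 50.7% to 56.6% for ABA, 29.0% to 38.2% in place of 46.1% to 50.6% for light and 24.2% in place of 45.7% for pifq against WT in light ABA. The members' counts under that scaling were 4 in place of 5 rises for ABA in pifq dark, 4 in place of 5 for light in WT ABA and 5 in place of 6 for light in pifq mock, and the others were as above.

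The tests of differences between responses called 6 of the 10 genes for ABA by genotype in darkness (CHS, CHI, F3'H, FLS1, DFR and PAP1), where 11.4% of all genes were called. The count was 3 without WT dark mock replicate 1. They called 4 for ABA by light in WT (CHS, CHI, F3'H and MYB12), against 11.9% of all genes. For genotype by light, 2 were called in mock (CHS and CHI, 18.4% of all genes) and 2 under ABA (F3'H and FLS1, 16.9%), the second of which was 1 without any of the 6 libraries named for FLS1. None was called by edgeR for ABA by light in pifq (18.7%), where 1 member (FLS1) had an unadjusted p under 0.05 and DESeq2 called FLS1 (-1.13, adjusted p = 0.0463). FLS1 was called there without pifq dark ABA replicate 1 (-1.41, adjusted p = 0.0203) or pifq light mock replicate 3 (-1.32, adjusted p = 0.0413), and CHS without pifq dark ABA replicate 2 (0.98, adjusted p = 0.0299). None was called by edgeR or DESeq2 for ABA by genotype in light (0.216%), where 0 members had an unadjusted p under 0.05. Of the 4 genes with 10 counts or more in every library, 2 were called above 0 and 2 below 0 for ABA by genotype in darkness. These counts were 1 and 2 for ABA by light in WT, 1 and 1 for genotype by light in mock, and 1 and 1 under ABA. DFR, PAP1 and MYB12 passed the low-count filter through the groups in which they were high.

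Some calls appeared when 1 library was left out, and a few of these also in DESeq2 with all libraries. FLS1 fell with ABA in WT dark without WT dark mock replicate 3 (-0.75, adjusted p = 0.0495). LDOX was higher in light in WT mock without WT dark mock replicate 1 (3.46, adjusted p = 0.0116), the library that held 11 of its group's 12 counts. PAP1 was lower in light in WT mock without WT dark mock replicate 2 (-1.86, adjusted p = 0.0401). UF3GT was higher in light in WT ABA without WT dark ABA replicate 3 (adjusted p = 0.0339), which held all 4 counts of its group. The genotype difference of CHS under ABA changed with light without pifq dark ABA replicate 1 (-1.28, adjusted p = 0.0187) or WT dark ABA replicate 3 (-1.26, adjusted p = 0.0487), against -1.03 with all libraries (adjusted p = 0.0742). The difference in the response of LDOX in darkness was called without pifq dark ABA replicate 1, pifq dark mock replicate 3 or WT dark mock replicate 2 or 3 (adjusted p = 0.0270 to 0.0482). DFR was lower in pifq under dark mock without WT dark mock replicate 2 (adjusted p = 0.0449). DESeq2 also called DFR there (adjusted p = 0.0322), for light in pifq mock (adjusted p = 0.0355), for ABA by light in WT (adjusted p = 0.0359) and for genotype by light in mock (adjusted p = 0.0494).

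Over the 24 libraries DFR and LDOX varied together most closely, with a correlation of log2 CPM of 0.90, while CHS correlated with LDOX at 0.77, with FLS1 at 0.76 and with CHI at -0.02. These values describe libraries that share conditions and depth. The genes most like CHS were AT4G29905 (0.92), MUM2 (0.91), AT4G25300 (0.90), AT4G31310 (0.89), AT1G17970 (0.89) and AT2G38740 (0.89). Most like DFR were AT4G37180 (0.82), AT2G43340 (0.79), AT1G74910 (0.79), AT2G03470 (0.78), LGO (0.77) and FBH1 (0.77). Only tested genes averaging at least 5 CPM were compared.

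The 9 general phenylpropanoid enzymes, which supply the precursor of CHS, gave more falls than rises with ABA in darkness and more rises than falls in light, a direction that in WT light flipped with scaling by library totals. With ABA, 6 rose and 1 fell in pifq light, 1 rose and 5 fell in pifq dark, 5 rose and 3 fell in WT light, and 0 rose and 6 fell in WT dark. With scaling by library totals these counts were 6 and 3, 0 and 5, 2 and 3, and 0 and 7. The list's median log2 change was 0.57 in pifq light, -0.47 in pifq dark, 0.29 in WT light and -0.36 in WT dark, beside -0.01, 0.03, 0.02 and 0.07 over all genes tested. Of all genes, 23.7% rose and 23.0% fell with ABA in pifq light, 26.0% and 22.7% in pifq dark, 21.0% and 19.0% in WT light and 22.8% and 17.5% in WT dark. 4CL2, which activates hydroxycinnamic acids, averaged 33.8 CPM in pifq light ABA against 16.3 CPM in pifq light mock (1.05 ± 0.11, adjusted p = 1.22e-07). 4CL2 averaged 61.3 CPM in WT dark ABA and 78.3 CPM in WT dark mock (-0.35 ± 0.10, adjusted p = 0.00821). 4CL3, the isoform tied to flavonoid synthesis, averaged 1.07 CPM in WT dark ABA and 3.09 CPM in WT dark mock (-1.53 ± 0.35, adjusted p = 0.00129). PAL3, a phenylalanine ammonia-lyase gene, averaged 23.0 CPM in pifq dark mock and 5.86 CPM in WT dark mock (1.97 ± 0.12, adjusted p = 8.32e-11). In this comparison 1 of the 9 enzymes was higher in pifq and 4 were lower, beside 23.5% and 20.9% of all genes.

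Of the 10 monolignol and sinapate genes, which take the same precursor to lignin and sinapate esters, 4 rose and 0 fell with ABA in pifq light, 2 rose and 4 fell in pifq dark, 4 rose and 2 fell in WT light, and 2 rose and 2 fell in WT dark. With library totals these counts were 3 and 2, 2 and 5, 1 and 2, and 2 and 4. Beside 23.7% and 23.0%, 26.0% and 22.7%, 21.0% and 19.0%, and 22.8% and 17.5% of all genes, several of these counts are near the background. CAD5, an alcohol dehydrogenase of lignin synthesis, rose with ABA in all 4 settings, by 0.76 to 1.21.

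Of the 8 flavonol accessory and decoration genes 6 were tested, and with ABA 4 rose and 1 fell in pifq light, 1 rose in pifq dark, 3 rose in WT light and 1 rose in WT dark. With library totals these were 3 and 1, 1, 2 and 0. Of all genes 21.0% to 26.0% rose and 17.5% to 23.0% fell with ABA, so the counts in darkness are near or below the background. CHIL, a helper protein of CHS that makes its product specific, averaged 25.6 CPM in pifq light ABA and 7.32 CPM in pifq light mock, a rise of 1.80 ± 0.27 (adjusted p = 1.31e-05). It also rose by 1.33 ± 0.29 in pifq dark (adjusted p = 0.000846) and 1.52 ± 0.26 in WT light (adjusted p = 9.01e-05). UGT78D1, a flavonol rhamnosyltransferase, averaged 22.8 CPM in pifq dark mock and 6.51 CPM in WT dark mock (1.81 ± 0.21, adjusted p = 9.66e-07). With library totals 2 of the 6 tested genes of this list were higher in pifq under dark mock and 2 were lower. With that scaling 4646 of all 20828 genes were higher and 4453 lower. In the main fit, with trimmed-mean scaling, CHI was higher in pifq under dark mock, and CHS lower.

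The 7 anthocyanin decoration and transport genes gave 3 rises and 0 falls with ABA in pifq light, 3 and 2 in pifq dark, 3 and 0 in WT light and 1 and 0 in WT dark. With library totals the counts were 3 and 1, 1 and 2, 3 and 1, and 1 and 0. Of all genes 21.0% to 26.0% rose and 17.5% to 23.0% fell with ABA, so several of these counts are near the background. 5MAT, a malonyltransferase of anthocyanins, averaged 1.92 CPM in pifq light ABA and 0.232 CPM in pifq light mock (2.94 ± 0.58, adjusted p = 0.000271). 5MAT also rose in pifq dark (2.49 ± 0.69, adjusted p = 0.00543) and WT light (3.09 ± 0.73, adjusted p = 0.00179). SCPL10, a sinapoyltransferase of anthocyanins, rose by 1.88 ± 0.30 in pifq light (adjusted p = 3.88e-05) and 2.29 ± 0.31 in WT light (adjusted p = 6.31e-06). In light against darkness 6 of the 7 rose in pifq ABA, 4 in pifq mock, 6 in WT ABA and 4 in WT mock, and with library totals 4, 2, 5 and 3. Of all genes 25.9%, 29.0%, 31.5% and 32.7% rose in these comparisons with trimmed-mean scaling.

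Among the regulators, MYB111, a relative of MYB12, fell with ABA in pifq light (-2.05 ± 0.55, adjusted p = 0.00389) and WT light (-1.65 ± 0.57, adjusted p = 0.0254). Of the 7 listed partners and relatives of PAP1 only 3 were tested, and PAP2 and TT8 were not among them. Of the 13 repressors 11 were tested, and with ABA 4 rose and 3 fell in pifq light, 1 and 5 in pifq dark, 5 and 3 in WT light and 1 and 4 in WT dark. With library totals the repressor counts were 3 and 3, 1 and 7, 5 and 3, and 1 and 5. Several of the repressor counts too are near the shares of all genes, 17.5% to 26.0% in a direction with trimmed-mean scaling. MYBL2, a repressor of the anthocyanin complex, averaged 394 CPM in pifq light ABA and 17.7 CPM in pifq dark ABA, a rise with light of 4.48 ± 0.27 (adjusted p = 6.87e-11). HY5, an activator of flavonoid genes whose protein is stable in light, averaged 7.11 CPM in pifq dark mock and 23.8 CPM in WT dark mock (-1.74 ± 0.20, adjusted p = 9.27e-07). HY5 averaged 8.85 CPM in pifq dark ABA and 22.8 CPM in WT dark ABA (-1.36 ± 0.20, adjusted p = 2.08e-05). Of the 14 light regulators 6 rose and 0 fell with ABA in pifq light, 3 and 1 in pifq dark, 4 and 0 in WT light and 2 and 0 in WT dark. With library totals these counts were 4 and 0, 3 and 4, 3 and 0, and 2 and 0. The rises in darkness are near or below the shares of all genes. These lists were chosen with earlier results of these data known.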

How the data were processed

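Polyadenylated RNA of whole seedlings was read as stranded paired reads of 100 bases. The deposited values are whole read counts per gene in 1 table, not normalized by the authors. Per the submitters' processing notes FastQC, STAR, SAMtools, DESeq2 and TAIR10 were used, without versions. No source used here names the counting program or its strand setting. Of the table's identifiers 285 (0.775% of counts) were not in the nuclear annotation used for names. Groups and replicates came from the labels.

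Counts of all 24 libraries were fitted with edgeR 4.0.16 (robust quasi-likelihood, trimmed-mean scaling, low-count filter by group, 1 coefficient per group), giving 18 contrasts, each adjusted over 20828 genes. The SE is the log2 change divided by the root of its F statistic. Where a group held 3 counts or fewer, the ratio of the groups is given with an exact conditional 95% interval for counting error alone. The fit was tested on simulated data. Replicates differed by more than counting noise, with chi-square per degree of freedom of 4.17 to 20.4. Same-numbered libraries deviated together, by correlations over genes all above 0.1, in 2 comparisons, pifq against WT under dark mock (0.134, 0.146, 0.321) and light ABA (0.393, 0.513, 0.338).

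Alternatives were other scalings, every gene with a count, DESeq2 1.42.0, the compared groups alone, a replicate block and each library left out. The block within the compared libraries was chosen after seeing the data. Members and lists were chosen with earlier results of these data known. All members are named. Of other pathway genes, at most 3 called genes of lowest p per list and contrast are named, plus PAP2, MYB111, TT8, HY5 and MYBL2 where regulators are described.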

Additional observations from a re-analysis of the deposited data

Results flagged for a closer look

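Among the members, 14 differences between responses passed the test of the difference itself, in edgeR's quasi-likelihood test with adjustment over all genes. For CHS the response to ABA in WT, light minus dark, differed by 2.94, the response to ABA in darkness, pifq minus WT, by 2.89, and the genotype difference in mock, light minus dark, by 1.45. For CHI the same 3 differences were -1.86, -1.79 and -1.50. F3'H differed by -1.72 in the response of WT to ABA between light and darkness, by -1.36 in the response in darkness between pifq and WT, and by 1.81 in the genotype difference under ABA between light and darkness. FLS1 differed by 1.66 in the response in darkness between pifq and WT and by -1.38 in the genotype difference under ABA between light and darkness. MYB12 differed by -3.02 in the response of WT to ABA between light and darkness. In the response in darkness, pifq minus WT, PAP1 differed by 3.19 and DFR had an adjusted p of 0.0309, with no size given. The calls of FLS1, DFR, PAP1 and MYB12 were each lost without some single libraries, as given beside their values. The 14 differences share groups and are not independent. All 3 of CHI include WT dark mock, where CHI averaged 4.95 CPM, against 14.5 to 20.2 CPM in the other groups. All 3 of CHS include WT dark mock too, and all 3 of F3'H include WT dark ABA.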

How the results depend on the processing

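Of 926 recomputed values other than those leaving out a library, 902 kept their direction and side of the threshold, 11 called ones lost their call, 13 gained one and 0 called ones changed sign, while 7 uncalled ones did. Of 1296 values with 1 library left out, 1226 kept both, 56 lost a call, 14 gained one, 0 called ones changed sign and 72 uncalled ones did. In the fit of the compared groups alone, members called were 2 in place of 5 for ABA in pifq dark, 3 in place of 6 for ABA by genotype in darkness, 3 in place of 6 for light in pifq mock and 3 in place of 5 for pifq against WT in dark ABA. DFR and LDOX in the dark comparisons, and LDOX and MYB12 for light in pifq mock, did not pass the filter of those fits and have no value there. DESeq2 called 1 in place of 0 for ABA by light in pifq, 5 in place of 4 for ABA by light in WT, 3 in place of 2 for genotype by light in mock and 4 in place of 3 for pifq against WT in dark mock. The cause of the other changes was not tested. With the replicate number as a block over all 24 libraries the counts of members called were the same in all 18 contrasts, for example 5 for ABA in WT dark. With the block within the compared libraries, chosen after seeing the data, 5 in place of 0 members were called for pifq against WT in light ABA, and 2 in place of 3 in dark mock, where PAP1 did not pass that filter. With 1 library left out, members called ranged from 2 to 5 for ABA in pifq dark, 3 to 7 for ABA by genotype in darkness, 0 to 1 for ABA by light in pifq, 1 to 3 for genotype by light under ABA and 3 to 5 for pifq against WT in dark ABA. Depth limits DFR, LDOX, UF3GT, MYB12 and the mock levels of PAP1, which rest on a few counts per library.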
